A study of Mus musculus with 4 samples.

Results

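The genes described here make, sense, take up and clear extracellular adenosine. They are the adenosine receptor genes *Adora1*, *Adora2a* and *Adora2b*, the ectonucleotidase genes *Nt5e*, *Entpd1* and *Entpd2*, the enzyme genes *Adk* and *Ada*, and the equilibrative nucleoside transporter genes *Slc29a1* and *Slc29a2*. They were taken by gene name, with all array probes that carry these names. These are 10 of the 29676 gene names on the array and 12 of its 39429 probes, since *Adora2b* and *Adk* have 2 probes each. Every one of the 12 was marked well above background on each of the 4 arrays, so all 12 were among the 28258 probes tested.

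The cells were astrocyte-enriched cultures (AECs) from cerebral cortices of newborn ICR mice, with the meninges removed. All cultures, the untreated ones included, had been exposed to PLX3397, which blocks the receptor CSF1R that microglia need to survive, in order to deplete them, and according to the methods the wells held independent cultures of different pups. The untreated group had 2 arrays, and the other group had 2 arrays of cultures kept for 15 h under oxygen-glucose deprivation (OGD), that is, in hypoxia and medium without glucose. The comparison asks how the transcripts of AECs differ after OGD.

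Adenosine is built up outside cells mainly from ATP. The ectonucleotidases CD39 (*Entpd1*) and NTPDase2 (*Entpd2*) remove phosphates from ATP, and CD73 (*Nt5e*) turns AMP into adenosine. Adenosine acts on G protein-coupled receptors, of which ADORA1 lowers cyclic AMP through Gi, whereas ADORA2A and ADORA2B raise it through Gs. The transporters ENT1 (*Slc29a1*) and ENT2 (*Slc29a2*) let adenosine cross the membrane in either direction, after which adenosine kinase (*Adk*) makes AMP from it and adenosine deaminase (*Ada*) makes inosine. In the adult brain adenosine kinase is found mainly in astrocytes, and adenosine is known to rise when oxygen or glucose runs short.

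The sequences are shown first, since a value is that of a probe and not of a whole transcript. Of the genes with 2 probes, the dimmer probe of each is given, as the pair allows a check within the gene. The *Adora2b* probe lies at chr11:62078754-62078813 and the *Adk* probe at chr14:22059713-22059772 of mm9, both on the plus strand. The exon or UTR of a probe was not assigned here. No base is in capitals, as the whole probe is the measured site.
Adora2b probe A_66_P118906: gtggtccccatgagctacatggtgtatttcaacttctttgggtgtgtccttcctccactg
Adk probe A_55_P2089820: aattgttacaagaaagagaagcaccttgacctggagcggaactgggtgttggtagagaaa

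Upstream sequences are shown for *Adora1*, whose change was the largest in size among the 12 probes, and for *Adora2b* and *Nt5e*, both described as targets of hypoxia-inducible factor-1 (HIF-1) in other cell types. They are the 250 bases before a gene start in RefSeq on GRCm38.p6, written 5′ to 3′ along the gene, and capitals mark GCGTG on either strand, 1 of the 2 forms of the core of a HIF-1 site (ACGTG and GCGTG). *Adora1* lies on the minus strand (chr1:134234857-134235106), and *Adora2b* (chr11:62248734-62248983) and *Nt5e* (chr9:88327359-88327608) on the plus strand.
Adora1 upstream: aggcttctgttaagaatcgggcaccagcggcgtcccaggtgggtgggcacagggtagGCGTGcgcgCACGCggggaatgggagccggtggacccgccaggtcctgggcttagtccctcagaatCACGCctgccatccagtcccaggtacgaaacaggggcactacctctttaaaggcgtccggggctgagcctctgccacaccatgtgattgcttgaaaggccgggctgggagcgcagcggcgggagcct
Adora2b upstream: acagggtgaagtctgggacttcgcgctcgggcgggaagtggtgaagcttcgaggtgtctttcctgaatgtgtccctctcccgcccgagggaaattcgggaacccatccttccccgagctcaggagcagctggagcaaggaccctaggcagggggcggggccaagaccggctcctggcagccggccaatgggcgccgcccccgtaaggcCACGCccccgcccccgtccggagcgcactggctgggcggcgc
Nt5e upstream: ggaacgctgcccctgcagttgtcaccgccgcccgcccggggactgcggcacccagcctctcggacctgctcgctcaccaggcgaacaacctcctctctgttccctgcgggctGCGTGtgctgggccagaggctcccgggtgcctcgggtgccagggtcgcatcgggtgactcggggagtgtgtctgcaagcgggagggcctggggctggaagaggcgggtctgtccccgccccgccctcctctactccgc

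RefSeq windows from 250 bases before to 50 after a start were at hand for 9 of the 10 genes, 19 windows in all. ACGTG or GCGTG was found in 13 of the 19 (68.4%), against 43.8% of all 32851 windows. Each of the 9 genes had at least 1 window with a match, but the share of all genes with such a window was not computed. A gene with more windows, such as *Slc29a1*, also has more chances of a match. Nothing particular to these genes is therefore read from these shares. ACGTG alone was in 19.6% of all windows and GCGTG alone in 32.4%. Some windows of *Slc29a1* overlap each other, and CACGTG holds ACGTG on both strands, so the counts are not of separate sites. The matches are letters in a window and were not tied to the measured changes. The *Adora1* window above holds 3 matches, at positions −193, −184 and −127 from the start, and a further *Adora1* window holds 1. The *Adora2b* window holds 1, at position −42, and the *Nt5e* window holds 1, at position −138.

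The arrays of the groups differed in brightness before any scaling. The 75th percentile of the processed signal, which is the background-subtracted intensity of a spot, was 2135 and 2164 in the untreated arrays and 887 and 776 in the OGD arrays, whereas spike-in control probes differed by a mean log2 of −0.08 (OGD minus untreated), with single control probes from −0.75 to 0.28. Changes by spike-in scaling that are smaller than this spread, such as those of *Adora2a* and *Adk*, are to be read with it in mind. Values were scaled to each array's 75th percentile, as the study's methods state, and scaling to the spike-ins instead lowers the change of each of the 28163 probes measured on every array by 1.29, and those of the other 95 by 1.25 to 1.35, and moves the median of all probes from 0.18 to −1.11. Changes are therefore given as log2 of OGD over untreated after 75th-percentile scaling, and the spike-in value is given where it turns the direction. Of 14 listed HIF-1 targets, 13 were tested and all 13 were called higher, beside 37.1% of all genes. By spike-in scaling 8 were called higher and 2 lower, beside 3.84% and 83.3% of all genes. This list was chosen with earlier results of these data known, so its count is no independent check of the treatment. *Vegfa*, the endothelial growth factor, changed by 3.56, the glucose transporter gene *Slc2a1* by 1.59 and *Ankrd37* by 5.92. By spike-in scaling *Slc2a1* was at 0.30 and was not called (limma adjusted p = 0.0838).

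Of the 12 adenosine probes, 10 passed an adjusted p of 0.05 in the limma fit over all probes, 5 higher and 5 lower after OGD. That is 83.3% of the 12 (41.7% higher and 41.7% lower), against 65.0% of all probes (37.9% higher and 27.1% lower), and with so few probes nothing particular to them is read from the gap. With spike-in scaling, 11 of the 12 passed, 1 higher and 10 lower, against 86.4% of all probes (4.47% higher and 81.9% lower). With an added limit of 2-fold, 4 of the 12 passed (28.7% of all probes), namely *Adora1*, *Entpd1*, *Adora2a* and 1 *Adk* probe, and none passed the study's limit of 10-fold (1.33% of all probes). The median change of the 12 probes was −0.22, and the untreated and OGD arrays did not overlap for any of them, as was so for 84.7% of all probes measured on every array. Without untreated array 1 only 6 probes passed and without untreated array 2 only 5, while the calls over all probes dropped to 11108 and 10264 from 18355. With 2 arrays against 2, an exact permutation test of a single gene cannot go below p = 0.333, so the calls rest on the spread that limma shares over all probes.

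**Figure D1:**
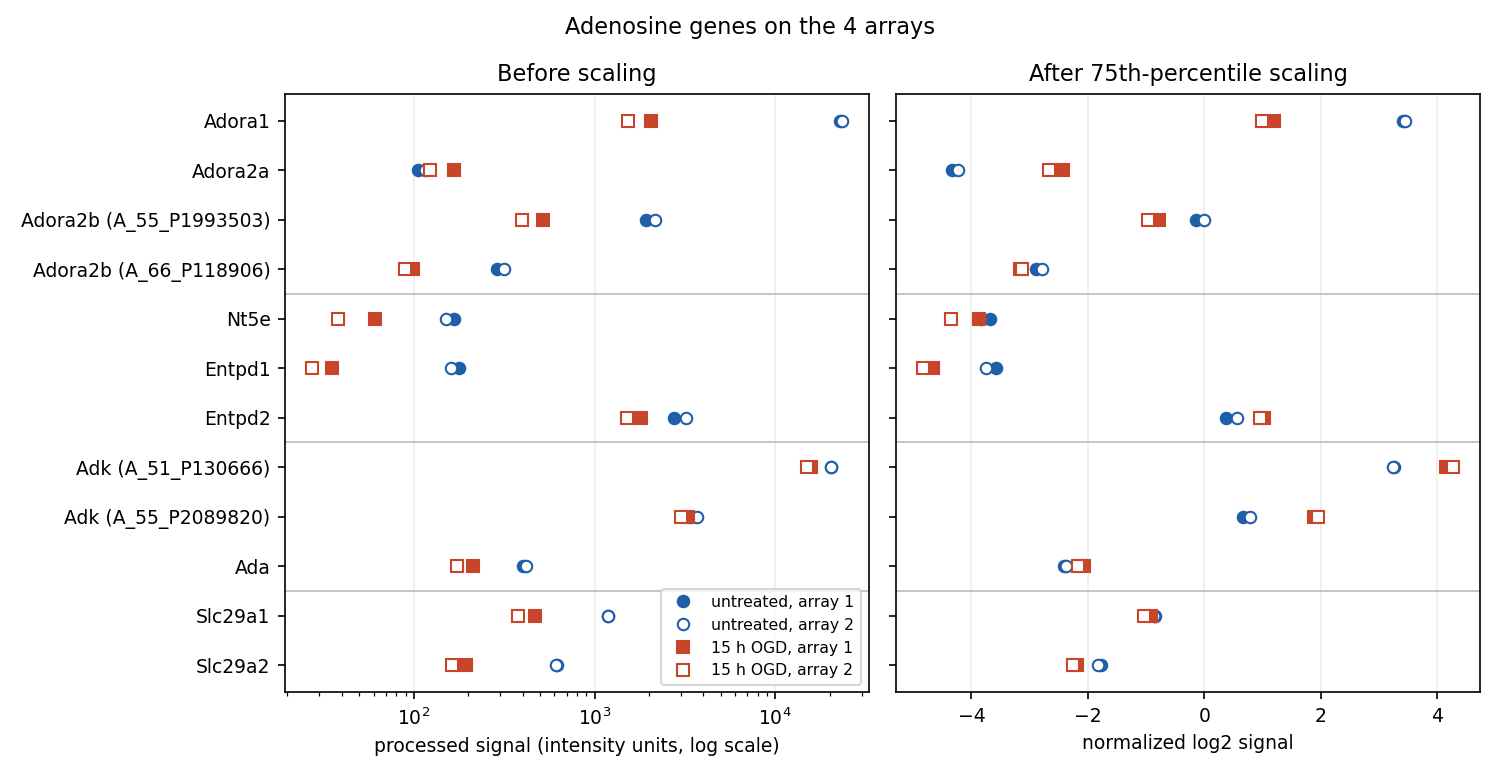
Values of the 12 probes of the adenosine genes on each array, ordered by role from receptors to transporters. The left axis is the processed signal in intensity units on a log scale, the right axis is the normalized log2 signal after 75th-percentile scaling, circles are the 2 untreated arrays and squares the 2 arrays of 15 h OGD. The OGD squares of *Adora1* lie far to the left of the untreated circles on both axes, and *Adora2a* is the only gene whose squares lie to the right of the circles on the left axis.

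Among the receptors, the transcript of the Gi-coupled ADORA1 was lower after OGD, that of the Gs-coupled ADORA2A was higher, and that of ADORA2B was moderately lower. *Adora1* (NM_001008533, probe at chr1:136095833-136095892 of mm9, minus strand) gave processed signals of 22787 and 23432 in the untreated arrays and 2042 and 1538 in the OGD arrays. Both OGD arrays were far below both untreated arrays. After scaling, the untreated arrays had a normalized log2 signal of 3.43 ± 0.015 (SD, n = 2), and the OGD arrays one of 1.09 ± 0.15 (SD, n = 2). The gene fell by 2.33 in log2 (standard error 0.11, 95% interval −2.64 to −2.03, limma adjusted p = 0.000866), which is 5.03-fold lower with an interval of 4.08-fold to 6.21-fold. Only 2.60% of all tested probes had a lower value of the change.

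*Adora2a* (NM_009630, chr10:74797461-74797520) gave 106 and 116 in the untreated arrays and 166 and 123 in the OGD arrays. Both OGD arrays were above both untreated arrays even before scaling, which was so for 5.46% of all probes and for no other adenosine gene, although the second OGD array was only slightly above the second untreated array. The untreated arrays had a normalized log2 signal of −4.28 ± 0.078 (SD, n = 2), and the OGD arrays one of −2.54 ± 0.17 (SD, n = 2). It rose by 1.74 on the log2 scale (standard error 0.12, 95% interval 1.39 to 2.08, limma adjusted p = 0.00152), or 3.34-fold, above 95.7% of all tested probes. With spike-in scaling the rise was 0.45 with an adjusted p of 0.0376. *Adora1* and *Adora2a* kept their direction and their call in all 15 alternatives run, with changes of −3.62 to −2.22 and of 0.45 to 1.86.

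*Adora2b* (NM_007413) was read by probes whose positions start 1080 bases apart. The brighter probe (chr11:62079834-62079893) gave 1924 and 2163 in the untreated arrays and 519.9 and 398 in the OGD arrays, and fell by 0.79 in log2 (standard error 0.12, limma adjusted p = 0.00696), or 1.73-fold. The dimmer probe, printed above, gave 287 and 315 against 99.3 and 88.8, and its change was −0.31 (standard error 0.09, limma adjusted p = 0.0392). Both probes were lower after OGD, by amounts that differ by 0.49 on the log2 scale (range over the 4 pairings of OGD with untreated arrays 0.35 to 0.62). The call of the dimmer probe ended in 10 of 15 alternatives, among them leaving out any 1 of the arrays (changes −0.36 to −0.25) and another background correction (normexp), with which the change was 0.011. The brighter probe lost its call without untreated array 2, where its change was −0.72 (adjusted p = 0.0614), and by the test that the study's methods name (adjusted p = 0.0510).

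The receptors can also be set against each other within an array, where a factor that applies to a whole array cancels. Over the 4 pairings of OGD with untreated arrays, the ratio of *Adora2a* to *Adora1* rose by 4.07 on the log2 scale (range 4.01 to 4.13), which is 16.8-fold. The ratio of *Adora2b* (brighter probe) to *Adora1* rose by 1.54 (range 1.46 to 1.61) and that of *Adora2a* to *Adora2b* by 2.53 (range 2.49 to 2.57). In each pairing *Adora2a* and *Adora2b* thus rose against *Adora1*, and over all settings run, normexp and quantile normalization included, the first ratio changed by 3.93 to 4.44 and the second by 1.47 to 1.89. These ratios show unequal change and not the level of any receptor against another. *Adora3*, the gene of the remaining adenosine receptor, was not well above background on any array and was not tested.

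For *Adora1*, the member with the largest change in size, the probes most alike over the 4 arrays were sought by the distance between centred profiles of normalized log2 signal, over 24492 other probes that exceeded background on every array. The nearest genes were *Elp6* (distance 0.029 on the log2 scale), *St8sia1* (0.040) and *Dok4* (0.040). Their changes were −2.32, −2.37 and −2.33. Over 4 arrays in 2 groups this distance depends mostly on the size of the change between the groups.

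**Figure D2:**
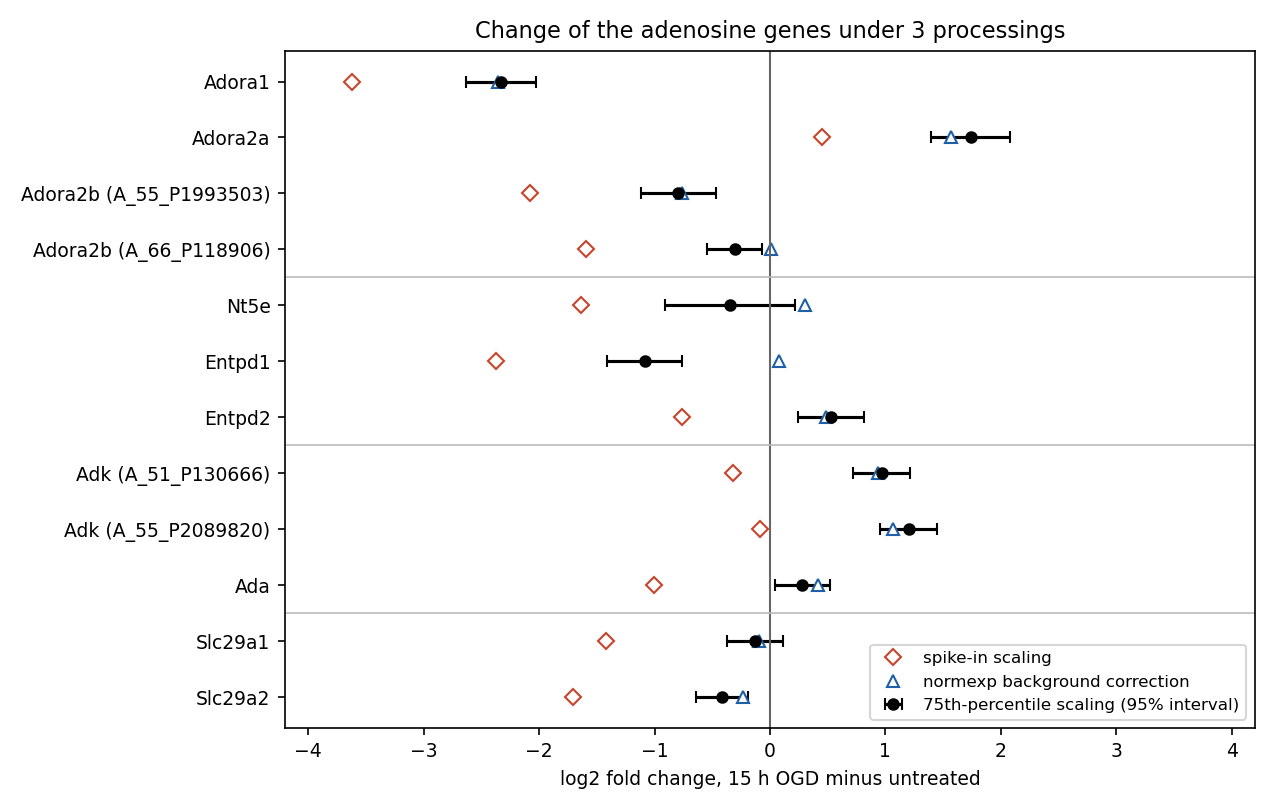
Log2 fold change of each of the 12 probes, 15 h OGD minus untreated, under 3 ways of processing, with probes ordered by role. Black points are 75th-percentile scaling with the 95% interval of the limma fit over 2 arrays a group, red diamonds are spike-in scaling and blue triangles are the normexp background correction. *Adora1* stays below 0 and *Adora2a* above 0 under all 3, whereas *Entpd2*, *Adk* and *Ada* are above 0 with 75th-percentile scaling and below 0 with spike-in scaling, and *Entpd1* moves from −1.09 to 0.08 with normexp.

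Of the ectonucleotidases, *Entpd1* was lower and *Entpd2* higher after OGD by 75th-percentile scaling, and *Nt5e* did not pass the test. *Entpd1* (NM_001304721, chr19:40816008-40816067) gave 179 and 162 in the untreated arrays and 35.1 and 27.2 in the OGD arrays, with both OGD arrays well below. It fell by 1.09 in log2 (standard error 0.11, 95% interval −1.41 to −0.76, limma adjusted p = 0.00320), or 2.12-fold. The normexp correction gave 0.08 (adjusted p = 0.453) in place of this fall, so the value of this dim probe depends on which of the 2 background corrections is used.

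CD39 is known in brain mainly from microglia and endothelium, so markers of these cells are given beside *Entpd1*. Of 13 microglial markers, 8 exceeded background clearly on every array and 5 on some of them (*C1qa*, *Cx3cr1*, *Fcrls*, *Ptprc* and *Trem2*). Their summed signal relative to the 75th percentile was 2.41 and 2.12 in untreated and 6.83 and 6.61 in OGD arrays. Before scaling the sum was 5139.9 and 4581 in untreated and 6058 and 5131 in OGD arrays, so the groups then overlapped. Nearly all of the rise lay in *Cd68*, which encodes a lysosomal protein and changed by 3.14, since without it the scaled sums were 1.87 and 1.56 against 1.98 and 1.74. Beside 37.1% higher and 27.8% lower over all genes (3.84% and 83.3% by spike-in scaling), 4 of the 12 markers tested were higher. A further 2 were lower and 6 not called, and by spike-in scaling 1 was higher and 9 lower. The 2 that were lower were *Tmem119* and *Trem2*, at −0.88 and −0.93, and those higher beside *Cd68* were *Csf1r* at 1.14, *Aif1* at 1.03 and *C1qb* at 0.70, which were at −0.15, −0.26 and −0.59 by spike-in scaling. The markers thus moved in both directions beside *Entpd1*. Of 8 endothelial markers, *Cldn5*, *Emcn* and *Tek* were not well above background on any array, and the summed signal was 1.99 and 2.10 in untreated and 1.89 and 1.66 in OGD arrays. Of the 5 tested, 0 were higher and 2 lower by the brightest probe of each gene, and by spike-in scaling all 5 were lower. This count depends on the probe, since the brightest and the other probe were at 0.60 (not called) and 3.58 (higher) for *Flt1*, at −0.40 (lower) and 1.11 (higher) for *Kdr*, and at −1.16 (lower) and −0.14 (not called) for *Vwf*, so no direction is given for the endothelial list. The part of these cells in the values of *Entpd1* was not tested. In such cultures, fewer cells of a type and less RNA per cell cannot be told apart.

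*Entpd2* (NM_009849, chr2:25256752-25256811) gave 2767 and 3188 in the untreated arrays and 1812 and 1511 in the OGD arrays. Its signal was lower in both OGD arrays, but by less than the signal of most probes. It was therefore higher by 0.53 after 75th-percentile scaling (standard error 0.10, 95% interval 0.24 to 0.82, limma adjusted p = 0.0148), and at −0.76 with spike-in scaling (adjusted p = 0.00448). The call ended without untreated array 1 (0.44, adjusted p = 0.0990), without untreated array 2 (0.62, adjusted p = 0.0589) and by the test of the study's methods (adjusted p = 0.0645). Within the arrays the ratio of *Entpd2* to *Entpd1* rose by 1.62 (range over the pairings 1.39 to 1.84), but by only 0.41 with normexp.

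*Nt5e* (NM_011851, chr9:88266616-88266675), whose product makes the adenosine itself, gave 168 and 151 against 61.0 and 38.1. The OGD arrays lay below the untreated ones but apart from each other. The change was −0.35 (standard error 0.20, 95% interval −0.91 to 0.21, limma adjusted p = 0.196), which leaves room for a fall of up to 0.91 or a rise of up to 0.21. Without OGD array 1 it was −0.59 and passed (adjusted p = 0.0260), with normexp it was 0.31 and passed in the other direction (adjusted p = 0.0225), and with spike-in scaling it was −1.64 (adjusted p = 0.00109). No direction of *Nt5e* can be given from these arrays.

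*Adk*, which clears adenosine by phosphorylation, held its signal better than most genes, with changes above those of 84.6% and 90.4% of all probes. The brighter probe (NM_134079, chr14:22267635-22267694) gave 20272 and 20389 in the untreated arrays and 15702.5 and 14988 in the OGD arrays. The dimmer probe (NM_001243041), whose position starts 207922 bases from the other and whose sequence is printed above, gave 3370.4 and 3708 against 3274 and 3007. For both probes the OGD arrays were below the untreated ones before scaling and above them after it. By 75th-percentile scaling they rose by 0.97 (standard error 0.09, 95% interval 0.72 to 1.21, limma adjusted p = 0.00230) and by 1.20 (standard error 0.09, 95% interval 0.95 to 1.45, limma adjusted p = 0.00164), which is 1.95-fold and 2.30-fold. By spike-in scaling they were at −0.32 (adjusted p = 0.0369) and −0.09 (adjusted p = 0.516). The probes differed in change by 0.23 (range over the pairings 0.14 to 0.33).

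*Ada* (NM_007398, chr2:163552581-163552640, minus strand) gave 399.7 and 419 in the untreated arrays and 212 and 174 in the OGD arrays. Its change was 0.28 (standard error 0.08, 95% interval 0.04 to 0.52, limma adjusted p = 0.0478), close to the limit and near the median of all probes, and it was −1.01 with spike-in scaling. The call ended in 8 of 15 alternatives, among them leaving out untreated array 1, untreated array 2 or OGD array 1 (changes 0.26, 0.31 and 0.23). The ratio of *Adk* (brighter probe) to *Ada* rose by 0.69 within the arrays (range over the pairings 0.54 to 0.83), or 1.61-fold. With quantile normalization it changed by only 0.057, since the brighter *Adk* probe was then at 0.43 (adjusted p = 0.0223) in place of 0.97, so a shift between these enzymes depends on the normalization.

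The transporters moved little against other genes. *Slc29a1* (NM_001199113, chr17:45722171-45722230, minus strand) gave 1187 and 1193 in the untreated arrays and 467 and 377 in the OGD arrays, and its change of −0.13 (standard error 0.09, 95% interval −0.37 to 0.11, limma adjusted p = 0.247) did not pass. *Slc29a2* (NM_007854, chr19:5031775-5031834) gave 623 and 609.7 against 195 and 163. It fell by 0.42 (standard error 0.08, 95% interval −0.64 to −0.19, limma adjusted p = 0.0147), a call that ended without untreated array 1 (−0.39) or without untreated array 2 (−0.44). Within the arrays the ratio of *Adk* (brighter probe) to *Slc29a1* rose 2.14-fold (range over the pairings 1.97-fold to 2.33-fold). With quantile normalization it rose 1.42-fold.

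**Figure D3:**
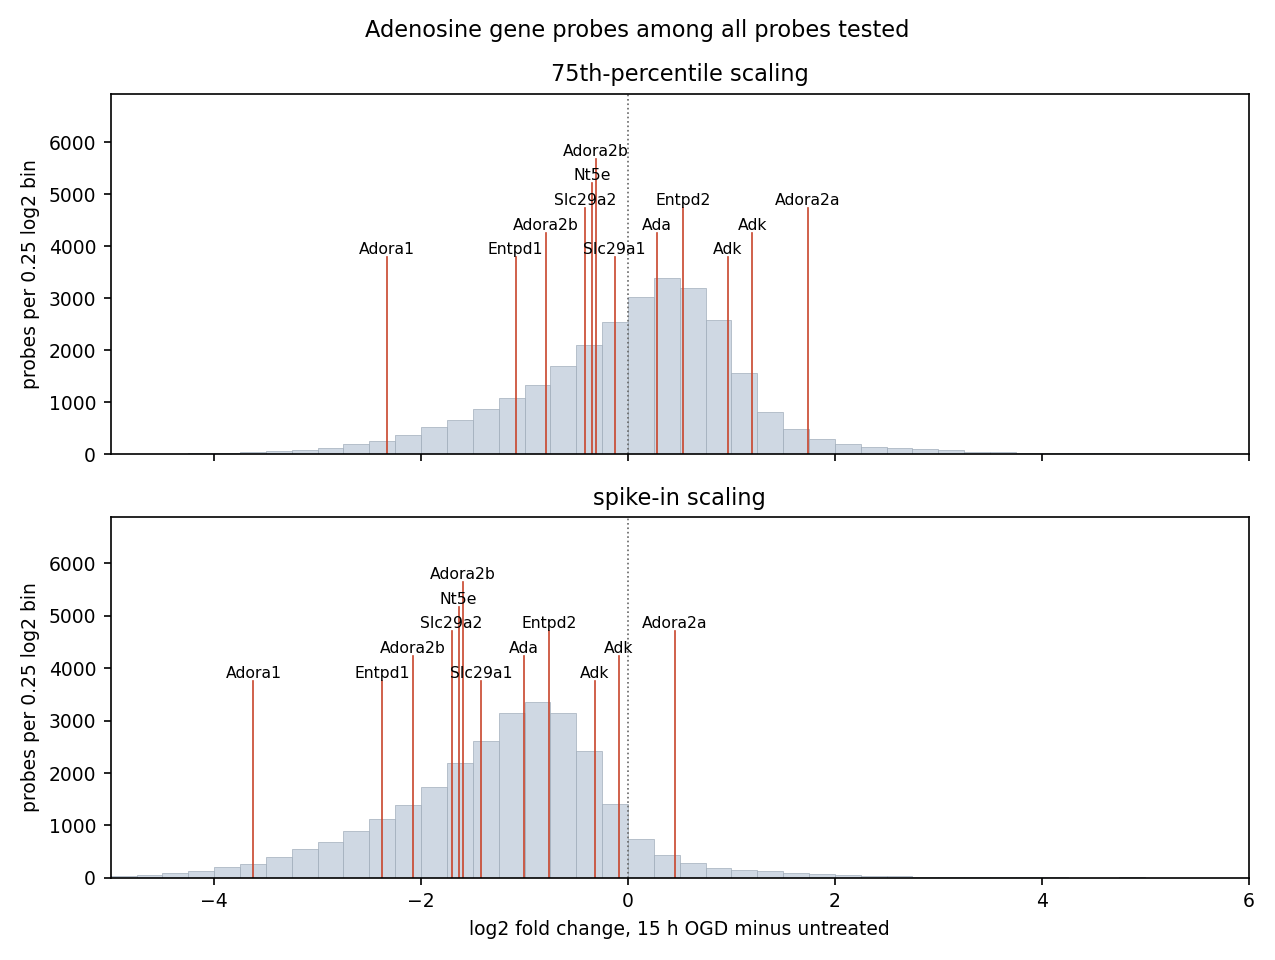
Place of the 12 adenosine probes (red lines with gene names) among all 28258 tested probes (bars, number of probes per 0.25 log2 bin), with the log2 fold change of OGD minus untreated on the x axis. The upper panel is 75th-percentile scaling and the lower panel spike-in scaling, and the height of a red line has no meaning. *Adora1* lies in the lower tail and *Adora2a* in the upper tail of both, and the whole distribution moves from a median of 0.18 to −1.11.

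Other genes that make or clear adenosine were spread over both directions. Of 36 listed enzymes, transporters and the receptor gene *Adora3*, 29 were tested by the brightest probe of each gene, of which 9 were higher and 8 lower, with a median of −0.14 against 0.16 over all 21064 genes tested. Over all genes, 64.9% passed (37.1% higher and 27.8% lower). By spike-in scaling 0 were higher and 26 lower, against 3.84% and 83.3% of all genes (87.1% in all), with normexp 15 were higher, and with 1 or the other untreated array left out 3 were higher and 5 lower. *Pnp*, which splits inosine into hypoxanthine, gave 16730 and 18351 in the untreated arrays and 2473 and 2051 in the OGD arrays, and fell by 1.59 on the log2 scale. *Entpd6*, a nucleoside diphosphatase gene, fell by 2.15, and the intracellular nucleoside transporter gene *Slc29a3* fell by 1.76. The purine salvage genes *Aprt* and *Hprt* were at 0.98 and 0.82, and *Enpp2* (autotaxin) at 0.90, all called higher by 75th-percentile scaling but at −0.31, −0.47 and −0.39 by spike-in scaling.

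Of 20 genes of ATP release and of the P2 receptors, which sense ATP and other nucleotides, 15 were tested. Beside 37.1% higher and 27.8% lower over all genes (3.84% and 83.3% by spike-in scaling), 4 of the 15 were higher and 5 lower. Their median was 0.12, and by spike-in scaling 1 was higher and 13 lower. With normexp 10 were higher, with 1 or the other untreated array left out 2 were higher, and without untreated array 1 only 3 were lower. *P2ry2*, a receptor for ATP and UTP, gave 5296 and 5155 in the untreated arrays and 11469 and 8741 in the OGD arrays. It rose by 2.31 on the log2 scale, and by 1.02 with spike-in scaling. *P2ry1*, a receptor for ADP, gave 3404 and 3653 against 483 and 422 and fell by 1.59, and the channel gene *P2rx4* fell by 1.40. *P2rx7* was at −2.57 by its brightest probe but at 0.73 and 0.40 by its other probes, so no direction is given for it, although all 3 were lower by spike-in scaling (−3.86, −0.56 and −0.89). *Gja1* (connexin 43) and *P2rx1* were called higher, 2.14-fold and 1.48-fold, but were at a log2 of −0.19 and −0.73 by spike-in scaling.

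Adenylate kinases interconvert AMP, ADP and ATP. All 9 genes of this list were tested, 6 were higher and 1 lower, and their median was 0.42 (1 higher and 6 lower by spike-in scaling), beside 37.1% higher and 27.8% lower over all genes (3.84% and 83.3% by spike-in scaling). With 1 or the other untreated array left out 4 were higher and 0 lower by limma's adjusted p. *Ak4*, a mitochondrial member of the family, rose by 1.74 by its brightest probe and by 4.12 by its other probe, and the brightest also rose with spike-in scaling (0.45). *Ak7* and *Ak8*, known from cilia, were at 1.35 and 1.05 and *Ak5* at −0.32. By spike-in scaling *Ak7* was at 0.06 and *Ak8* at −0.24.

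Of the 17 G protein alpha subunit and adenylyl cyclase genes, through which the adenosine receptors act, 5 were higher and 5 lower. Over all genes 37.1% were higher and 27.8% lower (3.84% and 83.3% by spike-in scaling). The median of the 17 was −0.14, and by spike-in scaling 0 of them were higher and 16 lower. With 1 or the other untreated array left out, fewer of the 17 were called higher. The lowest were the adenylyl cyclases *Adcy8* at −1.75, *Adcy1* at −1.63 and *Adcy9* at −1.06, and *Adcy7* (−0.94) and *Adcy6* (−0.90) were also called lower. *Adcy2* was called higher (0.45, but −0.84 by spike-in scaling), and *Adcy3*, *Adcy4* and *Adcy5* did not pass. *Gnas*, the Gs alpha subunit through which ADORA2A and ADORA2B act, was at 1.11, with its other probes at 0.58 and 1.45, *Gnai1* at 0.82 and *Gnal* at 0.45, whose other probe was at 0.30 and did not pass (limma adjusted p = 0.0538). By spike-in scaling the brightest probes were at −0.18, −0.47 and −0.83, so their direction depends on the scaling.

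**Figure D4:**
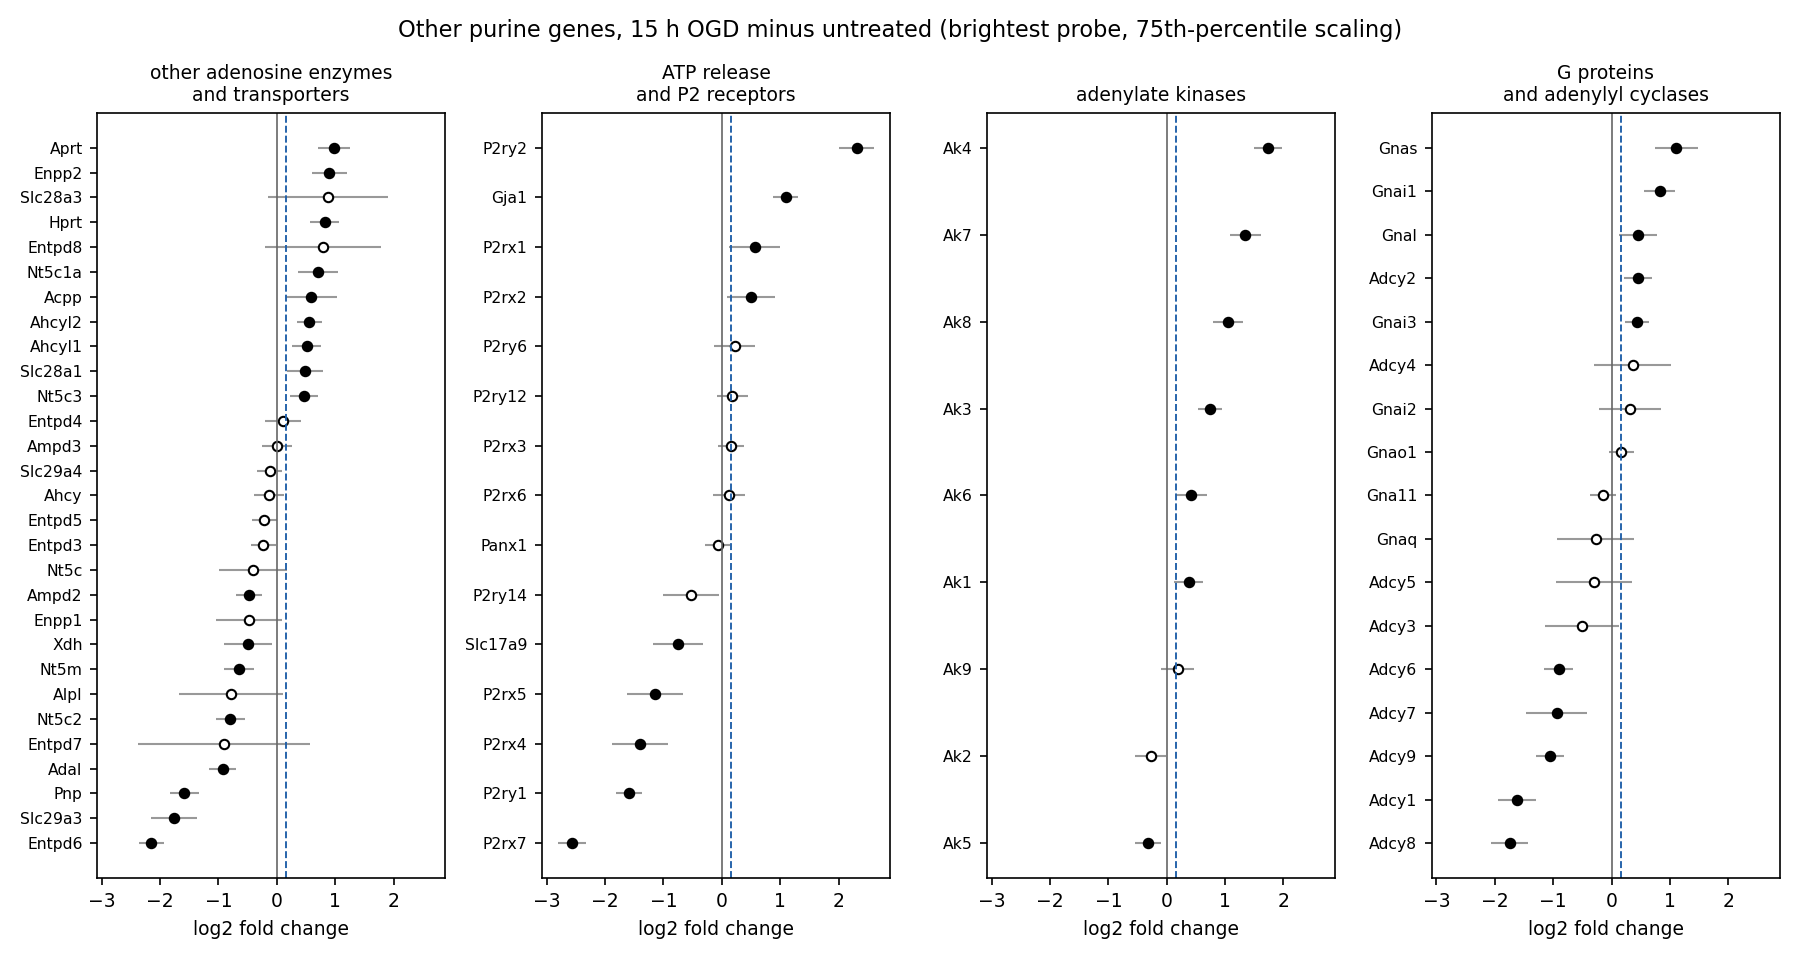
Log2 fold change, OGD minus untreated by 75th-percentile scaling, of the tested genes in 4 further lists of the purine system, each by its brightest probe. Filled points passed an adjusted p of 0.05 and open points did not, grey lines are 95% intervals over 2 arrays a group, the solid line is 0 and the dashed line is the median of all genes (0.16). *P2ry2* and *Ak4* lie far to the right, and the points of the adenylyl cyclases *Adcy1* and *Adcy8* far to the left.

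The label of the cultures was checked by markers. All 12 astrocyte markers exceeded background clearly on every array, with a summed signal relative to the 75th percentile of 177 and 157 in untreated and 233 and 239 in OGD arrays. Before scaling this sum was lower after OGD (377117 and 338853 against 206757 and 185325). Beside 37.1% higher and 27.8% lower over all genes (3.84% and 83.3% by spike-in scaling), 6 of the 12 were called higher and 2 lower. By spike-in scaling 0 of the 12 were higher and 9 lower. By the brightest probe of each gene, changes of the 12 ran from −1.52 for *Sox9*, a transcription factor gene, to 1.13 for *S100b*. The latter, a calcium-binding protein gene, was at −0.16 by spike-in scaling. The probes of *Aldh1l1* went opposite ways, with the brightest at 0.44 (higher, but −0.85 by spike-in scaling) and the other at −2.50 (lower). Of 9 oligodendrocyte markers, 8 exceeded background clearly on every array, as did 6 of 9 neuronal markers (*Slc17a7* on none) and 7 of 8 markers of meningeal fibroblasts. After 75th-percentile scaling the summed signal was 29.2 and 29.4 against 26.3 and 25.5 for oligodendrocytes, 6.78 and 6.44 against 8.32 and 8.36 for neurons, and 16.4 and 14.3 against 12.5 and 10.1 for meningeal fibroblasts. The last is over the 7 genes with a value on every array. The changes of the oligodendrocyte markers ran from −2.50 for *Olig2*, a transcription factor gene of that lineage, to 1.19 for *Mbp*, a myelin protein gene, which was at −0.10 by spike-in scaling. By the brightest probe, the oligodendrocyte list had 3 genes called higher and 3 lower (0 and 8 by spike-in scaling), the neuronal list 4 and 1 (1 and 6), and the fibroblast list 0 and 3 (0 and 7). The shares over all genes are those given above for the astrocyte markers. The probes of a gene differed in call for 3 astrocyte, 2 oligodendrocyte, 1 neuronal, 1 fibroblast and 1 microglial marker. The part of these cells in the changes of *Adora1*, *Adora2a* and the other adenosine genes was not tested.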

How the data were processed

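The deposited files hold, per the file headers, the intensity of each spot on 1-color (Cy3) Agilent mouse arrays, 1 array per culture, read with Agilent Feature Extraction 11.5.1.1 as the submitters' processing notes name it. The authors deposited the processed signal (background-subtracted intensity) with the mean signal and local background, not scaled between arrays, and the value table they gave for all arrays is identical to it. All arrays were on 1 slide and in 1 scan. Spots well above background made up 64.5% to 73.7% of each array, and no spot was saturated.

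Control spots and outlier spots were left out, log2 was taken, spots of a probe were averaged, and each array's 75th percentile over the non-control probes was subtracted. A probe was kept if the 2 arrays of some group both had it well above background (a fraction of at least 0.5 of its spots). The kept probes went into limma 3.58.1 (lmFit, eBayes; R 4.3.3), with Benjamini-Hochberg adjustment over all 28258 probes. Replicate arrays correlated at r = 0.998 (untreated) and 0.995 (OGD) across probes. The number of arrays limits the precision. The limma p-values rest on the spread between these 2 cultures a group, moderated by the spread shared over all probes. The spike-in scaling used the 9 of 10 control probes above background on every array.

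The methods' unpaired t-test, another prior, the replicate block, normexp (offset 50), quantile, median and spike-in scaling, filters on dim probes, outlier spots kept, the authors' series table, each array left out, a gene's mean over probes and a 2-fold limit were run as alternatives. The limma and t-test fits were tested on simulated normalized values. Python 3.11.15, pandas 2.3.3, numpy 2.4.6 and matplotlib 3.10.9 made tables and figures.

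The adenosine genes and the gene lists were chosen with earlier results of these data known. Named were all 10 genes with all their probes, up to 3 genes of each purine list with the largest rise and the largest fall among brightest probes past the threshold and well above background on all 4 arrays, 3 HIF-1 targets (*Vegfa*, *Slc2a1*, *Ankrd37*), the 3 genes nearest in profile to the adenosine probe with the largest change, and the markers below background. *Tmem119*, *Trem2*, *Cd68*, *Csf1r*, *Aif1*, *C1qb*, *Sox9*, *S100b*, *Aldh1l1*, *Olig2*, *Mbp*, *Flt1*, *Kdr*, *Vwf* and *Adcy2* to *Adcy7* were named after their values were seen. A microglial marker is not reported here and was left out of that list's counts and sums. The sum without *Cd68* was added after seeing the data. Probe positions are on mm9, and promoter windows are from RefSeq on GRCm38.p6, and all 10 symbols matched the RefSeq table. No paired structure between groups is stated.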

Additional observations from a re-analysis of the deposited data

How the results depend on the processing

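No adenosine probe other than *Adora1* and *Adora2a* kept its call and direction in every alternative. Receptor ratios kept their direction in all (*Adora2a* to *Adora1* 3.93 to 4.44), but normexp moved the change of the ratio of *Entpd2* to *Entpd1* from 1.62 to 0.41, and quantile normalization, which is not a single factor per array, moved that of *Adk* to *Ada* from 0.69 to 0.057. With spike-in scaling the values that turned were −0.76 for *Entpd2*, −0.32 and −0.087 for *Adk* and −1.01 for *Ada*, the adenosine probes higher and lower were 1 and 10, and 1227 probes of the array passed the adjusted p and 10-fold, against 377. With normexp the values that turned were 0.011 for the dimmer *Adora2b* probe, 0.31 for *Nt5e* and 0.077 for *Entpd1*, 3 adenosine probes were lower, and 106 probes passed 10-fold. The causes were not tested. The methods' t-test called 6 adenosine probes (3 higher, 3 lower), a 2-fold limit 4 (2 and 2), and 240 probes passed 10-fold among those well above background on all arrays, where fewer probes are tested. Leaving out each array in turn gave 5 to 9 adenosine probes (3 to 5 higher, 2 to 5 lower), and 10264 to 19190 probes of the array, or 384 to 479 with the 10-fold limit. The labels do not say whether the replicate numbers pair the samples. Deviations of same-numbered arrays correlated at −0.057, but a single correlation from 2 arrays a group cannot decide this. The replicate block gave 8 adenosine probes and 17206 in all, ending the calls of *Ada* (limma adjusted p = 0.0973) and the dimmer *Adora2b* probe. Over the purine lists, 88 of the recomputed counts stayed within 1.5 times the reported one and 32 did not. Of the dim probes, *Nt5e*, *Entpd1* and the dimmer *Adora2b* probe turned with normexp, whereas *Adora2a* stayed at 1.57.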
